A study of Oryza sativa with 6 samples.

Results

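The calcineurin B-like (CBL) and CBL-interacting protein kinase (CIPK) genes of rice were examined in leaf blades of an Os-LBD37 overexpressor, line RK16331-13, and of an empty vector control. Members were all genes whose symbol or synonym is CBL or CIPK plus a number, with or without an Os prefix. The gene table names 39 such genes, 9 CBL and 30 CIPK. Of these, 31 had a probe set annotated to that gene alone, 7 CBL and 24 CIPK, among the 17905 genes with such a probe set. The 8 without one, for which no value is given, were CBL1, CBL7, CIPK3, CIPK9, CIPK13, CIPK15, CIPK27 and CIPK33. Probe sets annotated to several genes or to none were not used. Whether some of those measure these 8 genes was not tested.

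Calcium signals in plant cells are read by sensor proteins. CBL proteins bind calcium through EF-hand motifs and carry no enzyme activity of their own. They recruit CIPK proteins, serine/threonine kinases of the SnRK3 family, by binding a conserved NAF motif that otherwise holds the kinase inactive. Each sensor places its kinase at the plasma membrane or the vacuole membrane, where the pair phosphorylates ion channels and transporters. In Arabidopsis, CBL4 and CIPK24 activate the sodium exporter SOS1, and CBL1 or CBL9 with CIPK23 activates the potassium channel AKT1. LBD37 is a transcription factor of the LOB domain family, known in Arabidopsis as a repressor of nitrogen-responsive genes.

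Each group had 3 arrays, the overexpressor and the empty vector control alike, hybridised with RNA of the 5th and 6th leaf blades of hygromycin-resistant plants grown in hydroponics. Overexpression is represented by 1 line, so what the gene does and what else differs between these lines cannot be told apart. Separate plants are not stated for the replicates, and the p-values therefore measure only the spread between these arrays, which may be technical. No probe set could be assigned to Os-LBD37 itself, so the overexpression was not checked here.

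Intensity is the brightness of a probe set on a linear scale, and each array had a trimmed mean of 500.1. Background was set on each array at the 95th percentile of 132 controls that target no rice transcript, and 50.9 to 55.4 percent of rice probe sets lay above it. Correlations of log2 intensity between arrays were 0.954 to 0.980 within lines and 0.939 to 0.967 between lines. The replicate 2 array of each line stood apart from replicates 1 and 3. The clock gene CCA1 read 611, 18627 and 624 in overexpressor replicates 1, 2 and 3, against 602, 5241 and 682 in empty vector replicates 1, 2 and 3. PCL1, a clock gene of the opposite phase, read 16866, 1275 and 17834 in the overexpressor and 20086, 1401 and 22354 in the empty vector line. Both replicate 2 arrays were thus high for CCA1 and low for PCL1. Of the 7 clock genes measured, 3 (CCA1, PRR73 and PRR95) were over 2-fold higher on both replicate 2 arrays than the mean of replicates 1 and 3, 1 (PCL1) was over 2-fold lower on both, and GI, PRR1 and PRR37 were neither.

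Leaf blade identity was checked with 4 marker genes. RBCS, CAB2R and GLO1 were bright on all 6 arrays and RBCS1 was above background on none. Their summed intensity was 55669 to 80131 in the overexpressor and 74725 to 88485 in the empty vector line, and 0 of 4 passed the test, with 1, GLO1, at an unadjusted p under 0.05 (adjusted p = 0.19 by limma). Of 3 root markers, Lsi1 was above background on all 6 arrays, NRAMP5 on 2 arrays of each line and Lsi2 on no array. Their summed intensity was 534 to 3091 in the overexpressor and 791 to 1142 in the empty vector line. Of the root, seed and clock genes none passed, 0 of 3, 0 of 7 and 0 of 7, and none had an unadjusted p under 0.05. Among 12 flower markers, MADS1 alone passed and fell in the overexpressor (adjusted p = 0.0107 by limma). At an unadjusted p under 0.05 stood 2 of 12, MADS1 and MADS16. MADS16 was higher in the overexpressor, at 383 to 548 against 224 to 332 in the empty vector line (adjusted p = 0.342 by limma). Of the 12, 6 were higher and 6 lower in the overexpressor. Above background on all 6 arrays were 4 of 12 flower markers and 2 of 7 seed markers. Flower marker sums were 1962 to 7501 in the overexpressor and 4325 to 6296 in the empty vector line. Seed marker sums were 746 to 1539 in the overexpressor and 932 to 1253 in the empty vector line.

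The question put to the arrays was which genes differ in level between the overexpressor and the empty vector line. No CBL or CIPK gene passed the test: 0 of 31 had an adjusted p under 0.05 by limma on log2(intensity + 16), with Benjamini-Hochberg adjustment over all 17905 genes. With the replicate number as a block, 1 of 31 passed, CIPK14, and 180 of all genes, or 1.01 percent. In the fit without the block 75 of all genes passed, or 0.419 percent, with 0.251 percent higher and 0.168 percent lower in the overexpressor. At an unadjusted p under 0.05 stood 3 members, CIPK14, CIPK10 and CIPK7, all lower in the overexpressor, while 14.3 percent of all genes reached that level. Changes are log2 differences, overexpressor minus empty vector, so a positive value means higher in the overexpressor. They were above 0 for 17 members and below 0 for 14, with a median of 0.03 beside 0.01 for all genes, and 27 lay within 2-fold. Adjusted p ran from 0.184 to 0.995.

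The precision of single members was modest. Their median standard error (SE) was 0.43 log2 units, against 0.31 for all genes. Members at the dim end were few: 28 of 31 were above background on all 6 arrays, CIPK6 and CBL5 on some, and CIPK30 on none. The probe set of CIPK30 read at most 3.16 in the overexpressor and at most 10.4 in the empty vector line, so no fold is given for it.

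**Figure D1:**
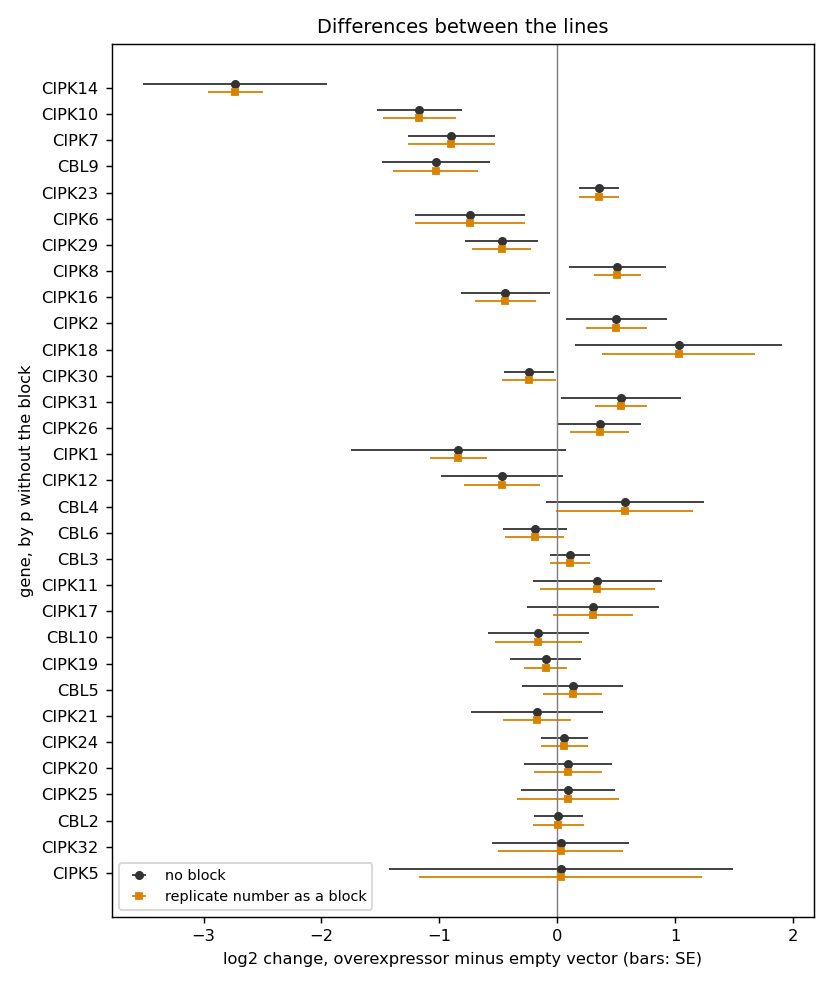
Log2 change of each of the 31 genes, overexpressor minus empty vector, with bars of 1 SE, by increasing p from top to bottom. Circles are the fit without a block and squares the fit with the replicate number as a block. CIPK14 lies farthest from 0 at -2.73, and its SE is 0.23 with the block and 0.78 without it.

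Among the calcium sensors, 0 of 7 passed and 0 had an unadjusted p under 0.05, and 6 of 7 changes were within 2-fold. The sensor with the smallest p was CBL9. CBL9 read 77.4, 109 and 121 in overexpressor replicates 1, 2 and 3, and 129, 442 and 191 in empty vector replicates 1, 2 and 3. All 3 overexpressor values were below all 3 empty vector values, and empty vector replicate 2 was the highest. The log2 change was -1.03 ± 0.46 (SE, n = 3 each) with an adjusted p of 0.381 by limma. A second CBL9 probe set gave -0.68. Both are of a type that Affymetrix marks as possibly binding related transcripts, so signal from related transcripts could not be told apart from that of CBL9.

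CBL2 and CBL3 are known in Arabidopsis as the sensors of the vacuole membrane. CBL3 read 3077, 3213 and 3242 in the overexpressor and 2544, 3182 and 3143 in the empty vector line, a log2 change of 0.11 ± 0.17 (SE) with a 95% interval of -0.30 to 0.52. For CBL2 the values were 593, 670 and 701 in the overexpressor and 669, 598 and 678 in the empty vector line. Its change was 0.01 ± 0.21 with an interval of -0.49 to 0.51. In both genes the lines overlapped and the 6 arrays lay close together, and the intervals leave out a 2-fold difference in either direction.

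CBL4, called SOS3 in Arabidopsis, acts there upstream of CIPK24 in sodium export. CBL4 read 161, 768 and 109 in the overexpressor, against 181, 143 and 155 in the empty vector line. One array, overexpressor replicate 2, was far above the other 5, and the lines overlapped. The log2 change was 0.57 ± 0.67 (adjusted p = 0.768 by limma) with all arrays, and -0.30 without both replicate 2 arrays.

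CBL10 is a partner of CIPK24 in the shoot of Arabidopsis. It read 375, 972 and 308 in the overexpressor, against 523, 555 and 556 in the empty vector line, a log2 change of -0.16 ± 0.43. As with CBL4, overexpressor replicate 2 was the highest of the 6 arrays. CBL6 read 1467, 2413 and 2482 in the overexpressor and 2449, 1951 and 2715 in the empty vector line, a log2 change of -0.19 ± 0.27, with overlapping lines. CBL5 was above background on 1 array of the overexpressor and 0 arrays of the empty vector line, reading 5.28 to 37.4 and 3.3 to 23, and its change of 0.13 ± 0.43 is that of a probe set near the floor. A second name listed for the same CBL5 gene is CBL2, and the name CBL5 was kept.

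**Figure D2:**
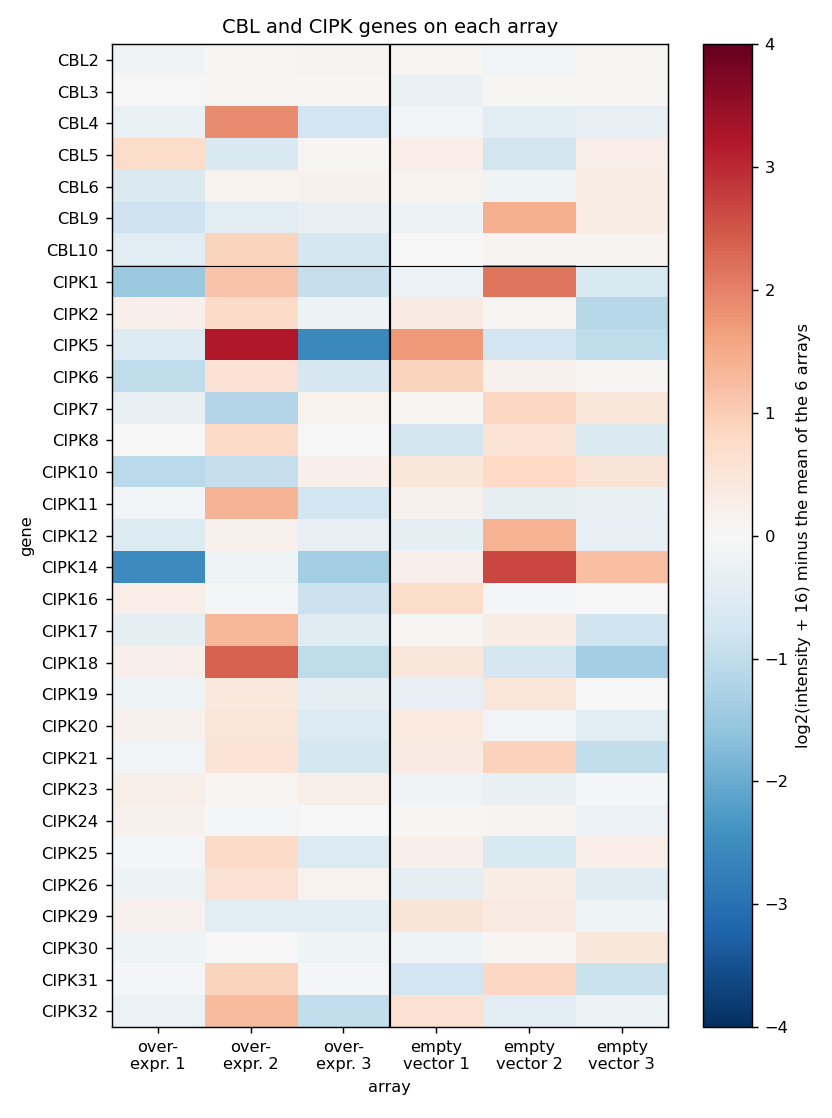
Each gene on each array as log2(intensity + 16) minus its mean over the 6 arrays, CBL genes above the line and CIPK genes below it, overexpressor arrays on the left. The column of overexpressor replicate 2 holds red cells for CIPK5, CIPK18 and CBL4, and the CIPK14 row is blue or pale on the left and pale to red on the right.

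CIPK14 had the largest difference and the smallest p of all members. In rice, CIPK14 and its near-identical copy CIPK15 are known from calcium-dependent responses of cultured cells to a fungal elicitor. CIPK14 read 62, 392 and 158 in overexpressor replicates 1, 2 and 3, and 511, 2884 and 1036 in empty vector replicates 1, 2 and 3. Every overexpressor value was below every empty vector value, and in both lines replicate 2 was the highest and replicate 1 the lowest. Mean intensity was 204 ± 170 in the overexpressor and 1477 ± 1246 in the empty vector line (SD, n = 3 each), 7.24 times as high in the empty vector line.

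The log2 change of CIPK14 was -2.73 ± 0.78 (SE), with a 95% interval of -4.59 to -0.87. It did not pass over all genes (adjusted p = 0.184 by limma, unadjusted p = 0.0105). Within pairs of the same replicate number the difference was -2.76, -2.83 and -2.60, so the arrays varied together across the lines. With the replicate number as a block, the SE was 0.23 and CIPK14 passed (adjusted p = 0.0233), the only member to do so. The correlations by which the numbers were taken to pair the arrays, and their limits, are given with the processing. Without both replicate 2 arrays the change was -2.68 (adjusted p = 0.0808) and 0 of 31 members passed, beside 1.41 percent of all genes. Leaving out single arrays gave changes of -3.33 to -2.07 (adjusted p = 0.134 to 0.4).

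CIPK15, which in rice links low oxygen and sugar shortage to the kinase SnRK1A, had no probe set annotated to it alone. Whether transcripts of CIPK15 bind the CIPK14 probe set was not tested, so the CIPK14 values may hold both genes. As the samples are bulk leaf tissue, fewer cells with the transcript and less transcript per cell cannot be told apart, here and for the genes that follow.

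Outside the family, 3 genes had log2 values most like those of CIPK14 over the 6 arrays. LOC4331348 had a Pearson r of 0.996, LOC4331983 of 0.990 and LOC4352132 of 0.989. LOC4331983 is D14, the strigolactone receptor of rice; it read 3095, 5371 and 3424 in the overexpressor and 6016, 12221 and 7793 in the empty vector line. It too was highest in replicate 2 of both lines, and its log2 change was -1.11 ± 0.33 (adjusted p = 0.193 by limma). These 3 were picked from all genes for their likeness, so the correlations are a description only.

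**Figure D3:**
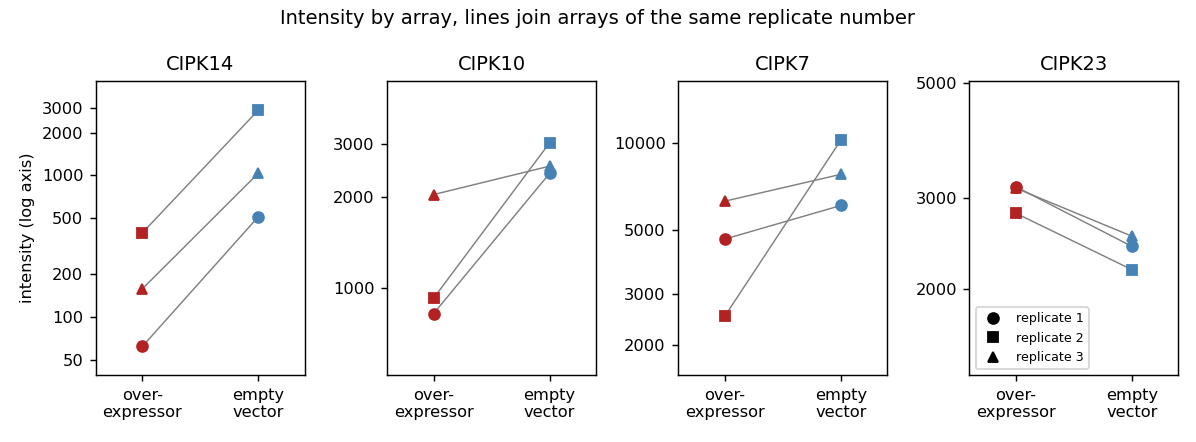
Intensity on a log axis of CIPK14, CIPK10, CIPK7 and CIPK23 on each array, overexpressor on the left and empty vector on the right of each panel, with lines joining arrays of the same replicate number. The CIPK14 lines run nearly parallel at differences of -2.60 to -2.83 log2 units, while those of CIPK10 and CIPK7 have unequal slopes.

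CIPK10 read 824, 926 and 2039 in the overexpressor, against 2397, 3024 and 2532 in the empty vector line. The lines did not overlap, although overexpressor replicate 3 came within 0.31 log2 units of its empty vector counterpart. The log2 change was -1.17 ± 0.36 (adjusted p = 0.202 by limma), with a 95% interval of -2.02 to -0.33. CIPK10 is the member with the most probe sets, and all 4 gave changes below 0, between -1.48 and -1.17. The probe set at -1.48 had an SE of 0.84 in a fit on all probe sets. Its lines overlapped, at 135, 471 and 804 in the overexpressor and 472, 3394 and 775 in the empty vector line. The lines did not overlap on the other CIPK10 probe sets.

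CIPK7 was the third member at an unadjusted p under 0.05. Its intensity was 4649, 2517 and 6285 in the overexpressor and 6073, 10209 and 7779 in the empty vector line. The lines overlapped by 1 pair of arrays, and the widest gap lay between the replicate 2 arrays. The log2 change was -0.90 ± 0.37 (adjusted p = 0.334 by limma), and -0.35 without both replicate 2 arrays. A second probe set gave -0.86 ± 0.95 (SE, from a fit on all probe sets), with overlapping lines. It read 225, 671 and 994 in the overexpressor and 495, 4515 and 416 in the empty vector line. Empty vector replicate 2 was far above its other arrays, and replicate 3 was higher in the overexpressor.

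CIPK23 is the kinase of the potassium channel AKT1 in rice and Arabidopsis and is also tied to the nitrate transceptor in Arabidopsis. It read 3148, 2798 and 3128 in the overexpressor and 2414, 2177 and 2526 in the empty vector line. This was the only member whose overexpressor values all lay above its empty vector values. The difference was small and even, 0.38, 0.36 and 0.31 log2 units in the 3 numbered pairs. Its log2 change of 0.35 ± 0.17 did not pass (adjusted p = 0.418 by limma), and the 95% interval was -0.05 to 0.75. The second CIPK23 probe set gave 1.17, with 1022, 802 and 1602 in the overexpressor and 936, 220 and 517 in the empty vector line.

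CIPK24 is called SOS2 in Arabidopsis, where it is the kinase of the sodium export pathway. CIPK24 read 1484, 1247 and 1301 in the overexpressor and 1371, 1405 and 1108 in the empty vector line. The lines overlapped, and the log2 change was 0.06 ± 0.20, with a 95% interval of -0.41 to 0.53. A difference of 2-fold lies outside that interval.

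CIPK8, which in Arabidopsis takes part in the primary nitrate response, read 1344, 2318 and 1344 in the overexpressor, against 801, 1988 and 890 in the empty vector line. Replicate 2 was the highest in both lines, each numbered pair was higher in the overexpressor, and the log2 change was 0.51 ± 0.41 (adjusted p = 0.644 by limma). CIPK31 had the same layout, at 2067, 3998 and 2050 in the overexpressor and 1257, 3829 and 1132 in the empty vector line. Its change was 0.54 ± 0.51 with all arrays, and 0.78 without both replicate 2 arrays (adjusted p = 0.0865). Its second probe set gave -0.10, and the same gene is also listed under the name CIPK3.

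CIPK29 and CIPK6 completed the members of smallest p. CIPK29 read 454, 291 and 297 in the overexpressor and 579, 521 and 360 in the empty vector line, a log2 change of -0.47 ± 0.31. CIPK6 read 13.8, 74 and 21.3 in the overexpressor, where 1 of 3 arrays was above background, and 96.3, 51.2 and 45.6 in the empty vector line, where all 3 were. The CIPK6 change was -0.74 ± 0.47, and overexpressor replicate 2 lay inside the empty vector range. Neither gene passed (adjusted p = 0.568 for CIPK29 and 0.559 for CIPK6 by limma).

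The probe sets with the highest mean intensity in the family were those of CIPK7, CIPK1, CIPK2, CIPK19 and CIPK25, which does not rank their transcripts, since probe sets differ in binding. CIPK2 read 4284, 6402 and 3264 in the overexpressor and 4740, 3862 and 1704 in the empty vector line, a log2 change of 0.50 ± 0.43. The CIPK2 probe set used is, like those of CBL9, of a type marked as possibly binding related transcripts. Without such types the CIPK2 change was 0.11. CIPK19 read 3455, 5256 and 3039 in the overexpressor and 3122, 5510 and 3915 in the empty vector line, a change of -0.10 ± 0.30. CIPK25 read 3868, 7013 and 2774 in the overexpressor and 4677, 2675 and 4950 in the empty vector line, a change of 0.09 ± 0.40. In all 3 genes the lines overlapped, and the direction of CIPK19 and CIPK25 turned when single arrays were left out. CIPK2 and CIPK29 stand next to each other in the gene table of assembly ASM3414082v1. Neither passed (adjusted p = 0.673 for CIPK2 and 0.568 for CIPK29 by limma), and the probe sets of CIPK2 had changes of both signs.

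Across the family the lines did not overlap for 4 of 31 members, CIPK23 higher and CIPK14, CIPK10 and CBL9 lower in the overexpressor. Of all genes, 11.8 percent were higher and 9.36 percent lower without overlap, 21.2 percent in all. All 3 numbered pairs ran the same way in 5 members higher and 6 lower, against 22.6 and 20.2 percent of all genes. Both shares of members lie near or below those of all genes.

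**Figure D4:**
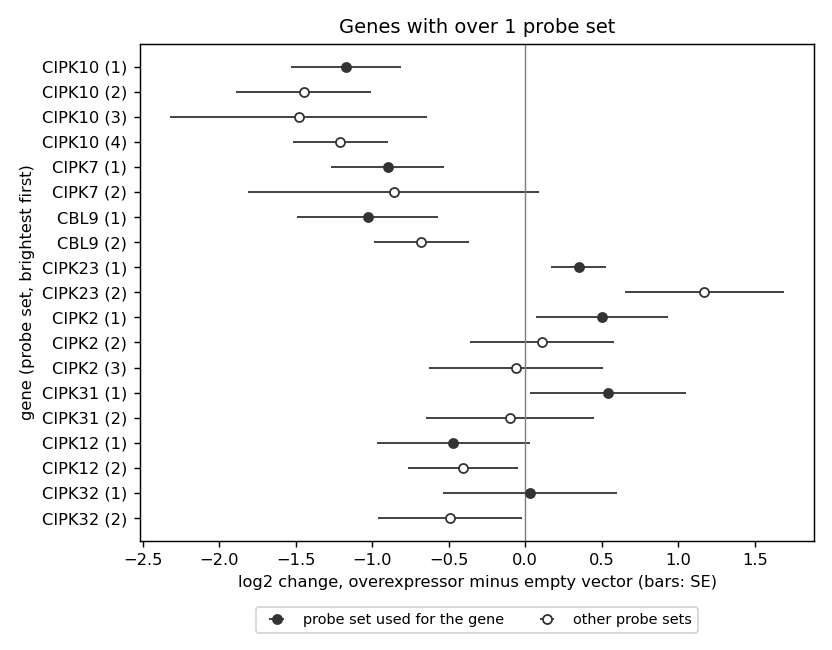
Log2 change, overexpressor minus empty vector, with bars of 1 SE from a fit on all probe sets, for the 8 genes with over 1 probe set; filled points stand for the gene. All 4 CIPK10 probe sets lie below 0 and both CIPK23 probe sets above it, while those of CIPK2, CIPK31 and CIPK32 lie on both sides.

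Of the 8 members with over 1 probe set, 5 had all of them on the same side of 0. CIPK10, CIPK7, CBL9 and CIPK12 were below 0 on each, and CIPK23 was above 0 on each. CIPK2, CIPK31 and CIPK32 had probe sets of both signs. For those 3, the per-array values given are those of the brightest probe set alone.

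Genes named for the targets and relatives of the pathway were counted in the same fit, 35 genes in 4 lists, and 0 of 35 passed. At an unadjusted p under 0.05 stood 4 of 35, beside 14.3 percent of all genes. Of the 10 transport proteins measured, 2 were among these, AMT1;1 and CAX3, and 7 had changes above 0 and 3 below, with a median of 0.37. The largest was AMT1;1, an ammonium transporter of a family that CIPK23 inhibits in Arabidopsis. AMT1;1 read 5885, 14272 and 3537 in the overexpressor and 3688, 2462 and 1882 in the empty vector line. Overexpressor replicate 2 was the highest array, and the lines overlapped by 1 pair, 3537 in the overexpressor against 3688 in the empty vector line.

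The AMT1;1 change was 1.37 ± 0.52 (adjusted p = 0.297 by limma), and 0.79 without both replicate 2 arrays. CAX3, a proton/calcium exchanger, read 3281, 1960 and 2184 in the overexpressor and 1430, 1959 and 1091 in the empty vector line, with no overlap and a change of 0.73 ± 0.30 (adjusted p = 0.338). HAK5, a potassium transporter, read 17284, 13198 and 13712 in the overexpressor and 18099, 20489 and 17097 in the empty vector line, a change of -0.34 ± 0.18 (adjusted p = 0.476). The CAX3 values were apart by a narrow margin, 1960 at the lowest in the overexpressor against 1959 at the highest in the empty vector line, while the lines overlapped for HAK5.

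AKT1, the channel that CIPK23 activates, read 678, 666 and 711 in the overexpressor and 470, 729 and 417 in the empty vector line. Its change was 0.38 ± 0.27 (adjusted p = 0.607 by limma), and the overexpressor arrays lay inside the empty vector range. The only AKT1 probe set is of a type marked as possibly binding related transcripts. AKT1 was named for its link to CIPK23 after its values were seen.

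In the sugar starvation and low oxygen branch of CIPK15, 0 of 12 genes passed, 1 had an unadjusted p under 0.05, 5 changes were above 0 and 7 below, with a median of -0.03. MYBS1, a MYB activator of alpha-amylase genes under sugar starvation, read 986, 1015 and 452 in the overexpressor and 1162, 2624 and 1321 in the empty vector line. The lines did not overlap, and the change was -1.03 ± 0.43 (adjusted p = 0.346 by limma). MYBS2, a related MYB protein, read 7263, 12823 and 7158 in the overexpressor and 6676, 6383 and 5311 in the empty vector line, a change of 0.52 ± 0.27 (adjusted p = 0.452). The alpha-amylase gene AMY3D read 1.12 to 41.5 in the overexpressor, with 1 array above background, and 40.8 to 50.3 in the empty vector line, with all 3 above. Background in the empty vector line was 28.6 to 45.4, so AMY3D lay near the floor. The lines overlapped, and its change was -0.88 ± 0.44 (adjusted p = 0.441 by limma). The mean of its probe sets gave -0.37.

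The SnRK2 kinases SAPK1 to SAPK10, which act in osmotic stress and abscisic acid signalling, were measured in full. None of the 10 passed and 0 had an unadjusted p under 0.05, with 6 changes above 0 and 4 below and a median of 0.10. SAPK2 had the smallest p, with 3663, 3684 and 7468 in the overexpressor and 1753, 5521 and 2252 in the empty vector line (0.73 ± 0.48, adjusted p = 0.571 by limma), and a change of 1.39 without both replicate 2 arrays (adjusted p = 0.123). SAPK5 followed with a change of 0.24 ± 0.20. SAPK9 was low on both replicate 2 arrays, at 4726, 118 and 3721 in the overexpressor and 7304, 1002 and 8362 in the empty vector line. Its change was the largest of the 10, -1.57 ± 1.47 (adjusted p = 0.705 by limma). With the replicate block the SE was 0.45 (adjusted p = 0.159), and without both replicate 2 arrays the change was -0.90 (adjusted p = 0.0827). The SAPK9 probe set is of a type marked as possibly binding related transcripts.

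Calcium entry channels and NADPH oxidases with a probe set were 3, and 0 of 3 passed, with 1, TPC1, at an unadjusted p under 0.05. TPC1, a calcium-permeable cation channel, read 1726, 999 and 1522 in the overexpressor and 2077, 3293 and 2111 in the empty vector line. The lines did not overlap, the log2 change was -0.81 ± 0.29 (adjusted p = 0.272 by limma), and it was -0.37 without both replicate 2 arrays. GLR3.1, a glutamate receptor-like channel, had a change of 0.31 ± 0.48, and the oxidase RBOHB one of -0.25 ± 0.45.

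The replicate 2 arrays were set against the other arrays of their lines. The departure of replicate 2 is its log2 value minus the mean of replicates 1 and 3 of the same line. Over 2-fold higher in both lines were 2 of 31 members, CIPK1 and CIPK14, against 2.87 percent of all genes, and over 2-fold lower in both were 0 of 31, against 3.06 percent. Over 4-fold higher in both was 1 of 31, CIPK1, against 0.547 percent. CIPK1 read 1137, 7118 and 1694 in the overexpressor and 2730, 14244 and 2034 in the empty vector line, departures of 2.35 and 2.59. Its change between the lines was -0.84 ± 0.91 without the block and had an SE of 0.24 with it (adjusted p = 0.747 and 0.162 by limma). CIPK31 followed, with departures of 0.95 in the overexpressor and 1.67 in the empty vector line. Of the members down in both lines, CBL5 departed most, at -0.99 in the overexpressor and about as far down in the empty vector line. Its replicate 2 arrays read 5.28 in the overexpressor and 3.3 in the empty vector line, both below background.

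Overexpressor replicate 2 alone was over 2-fold higher for 9 of 31 members, against 6.16 percent of all genes. The same held for 9 of the 35 partner genes, so it was not particular to the CBL and CIPK genes. The threshold and the 9 members were chosen after their values were seen. CIPK5 read 464, 6374 and 100 in the overexpressor and 2282, 400 and 330 in the empty vector line, so overexpressor replicate 2 was far above its line, a departure of 4.76, while empty vector replicate 1 was also high. CIPK18 read 372, 1729 and 152 in the overexpressor and 450, 198 and 117 in the empty vector line. CIPK32 read 2458, 7040 and 1441 in the overexpressor and 4399, 2145 and 2493 in the empty vector line. The others were CBL4, CBL10, CIPK6, CIPK11, CIPK17 and CIPK25, with departures between 1.09 and 2.40 in the overexpressor and between -0.84 and 0.67 in the empty vector line.

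On the same array, the root marker Lsi1, a silicon channel, read 3052, against 506 and 802 in overexpressor replicates 1 and 3 and 770 to 1096 in the empty vector line, while Lsi2 was above background on none and NRAMP5 read 37.5. The calcium exchanger gene CAX1a read 744, 4155 and 616 in the overexpressor and 1375, 796 and 848 in the empty vector line. The part of these values in the departures was not tested. Empty vector replicate 2 alone was over 2-fold higher for 5 members, CBL9, CIPK8, CIPK12, CIPK21 and CIPK31, against 4.38 percent of all genes. Median departures of the 31 members were 0.70 in the overexpressor and 0.17 in the empty vector line, against -0.06 and -0.03 for all genes.

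**Figure D5:**
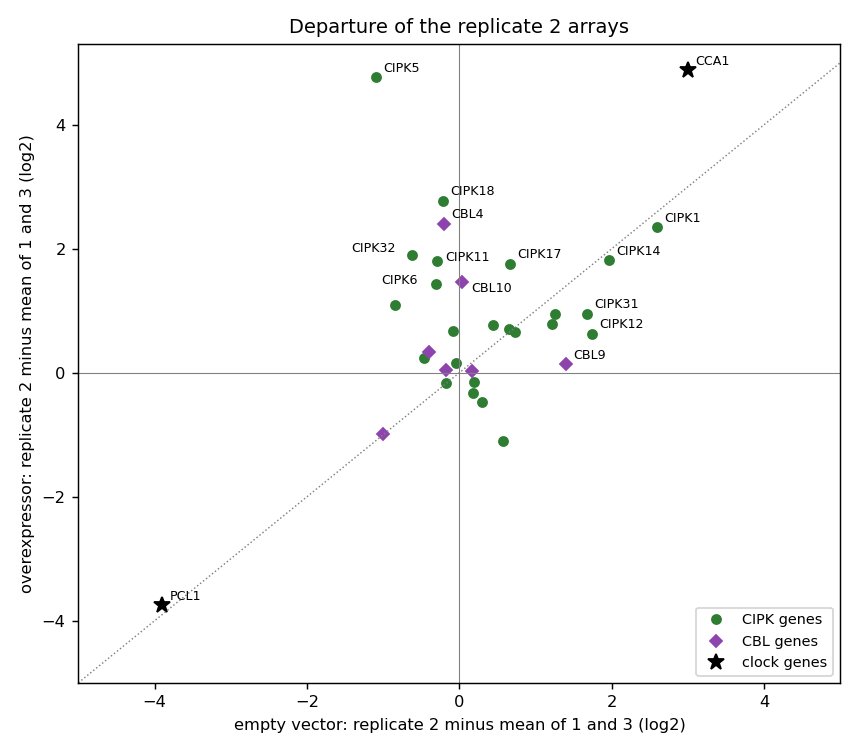
Departure of replicate 2 from the mean of replicates 1 and 3 in log2 units, overexpressor on the vertical and empty vector on the horizontal axis, for the 31 members and for CCA1 and PCL1; the dotted line marks equal departures. CIPK1 and CIPK14 lie near the dotted line, while CIPK5, CIPK18 and CBL4 are high in the overexpressor alone.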

How the data were processed

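The series was measured on Affymetrix Rice Genome arrays with biotin-labelled cRNA from 10 ug of total RNA, per the labels' protocols. Groups came from titles; the overexpressor samples carry the control's description, which was set aside. The authors deposited linear intensity per probe set, scaled per array; which software summarized it was not given in the sources used here. The number of arrays limits the precision.

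Of 57194 rice probe sets, 22436 had 1 gene, 95 several and 34663 none. Gene names are those of the table for assembly ASM3414082v1. Members and lists were chosen with earlier results of these data known. Each gene stood as its probe set with the highest mean over the 6 arrays. limma 3.58.1 in R 4.3.3 fitted log2(intensity + 16) with lmFit and eBayes (variance trend), 2-sided, with a threshold of 0.05 after Benjamini-Hochberg adjustment. The functions were tested on simulated data.

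The fit was first run on the gene rows, then on all rice probe sets with adjustment over genes, a change made after results of both had been seen. As the test had been set down on gene rows, those are reported and the other is an alternative. It gave 94 genes in place of 75 and no other call for a member.

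Arrays of the same replicate number had correlations of 0.209, 0.3 and 0.154 in their deviations from the line means, and others -0.293 to 0.181. With all 3 above 0.1 the numbers were taken to pair the arrays. Overexpressor replicate 1 with empty vector replicate 3, at 0.181, lay above the replicate 3 pair, at 0.154. A shift of replicate 2 in both lines raises this measure, so it does not show that replicates 1 and 3 pair by number.

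Named genes were all CBL genes, the 8 members with the smallest p, the 5 brightest, CIPK14, CIPK23 and CIPK24, up to 3 most departing in replicate 2 each way in both lines, up to 3 per partner list, CCA1 and PCL1 beside results on replicate 2, and 3 genes most like CIPK14. CIPK5, CIPK11, CIPK12, CIPK17, CIPK18, CIPK21, CIPK30, CIPK32, AKT1 and CAX1a were named after their values were seen. So were MADS1, MADS16, GI, PRR1, PRR37, PRR73, PRR95, Lsi1, Lsi2 and NRAMP5. Alternatives were another pseudocount, a filter on low values, other scalings, no variance trend, the block, other probe set choices and arrays left out.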

Additional observations from a re-analysis of the deposited data

How the results depend on the processing

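With the replicate number as a block, 1 of 31 members passed, in the fit on gene rows and in that on all probe sets alike; the gene was CIPK14 (adjusted p = 0.0233 and 0.0169), and no other named gene changed its call. Leaving out single arrays gave 0 to 0 members. Partner genes stayed at 0 under all alternatives run. The count over all genes was 75, and 119 with median centring, 180 with the replicate block, 237 with the block in the fit on all probe sets, 253 without both replicate 2 arrays, and 1 to 46 when single arrays were left out. Of the 180, 66 were among the 75. Among single arrays left out, the count was lowest without overexpressor replicate 3 and highest without overexpressor replicate 2. Without both replicate 2 arrays the sign turned for CBL4 (-0.30), CIPK25 (-0.55), CBL2 (-0.06) and RBOHB (0.11). Quantile normalization turned CBL2 (-0.05). The mean of a gene's probe sets turned HAK5 (0.13) and MYBS2 (-0.09). Leaving out single arrays turned the sign of CIPK1 (-1.62 to 0.02), CBL4 (-0.23 to 1.09), CBL6 (-0.32 to 0.06), CBL10 (-0.65 to 0.15), CIPK19 (-0.33 to 0.12), CBL5 (-0.2 to 0.46), CIPK24 (-0.05 to 0.12), CIPK25 (-0.27 to 0.4), CBL2 (-0.04 to 0.08), SAPK9 (-2.55 to 0.09), GLR3.1 (-0.2 to 0.69) and RBOHB (-0.66 to 0.25). None of these genes passed with all arrays. With a departure over 4-fold, added after the data were seen, 1 member was high on both replicate 2 arrays, CIPK1. The causes were not tested. Signal over background limits what can be read for CIPK30, above background on no array, and for CIPK6 and CBL5, above it on some.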
